A study of Ovis aries with 16 samples.

Results

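Of 694 small nucleolar RNA (snoRNA) rows deposited for liver and thigh muscle of adult sheep, 38 were at a mean of at least 5 in both tissues and had a mean in animals exposed to bisphenol A (BPA) before birth that was more than 0.5 and less than 2 times the control mean, again in both tissues. These 38 rows, selected on their deposited levels and their BPA to control ratios, are described here. Reads were present for 458 of the 694 rows, and 158 reached the level of 5 in both tissues, so that the 38 made up 24.1% of the rows that could be chosen. Levels and ratios are therefore given as a description, without a test. The difference between the tissues was not used in the choice and was tested.

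The animals were 8 female sheep born to Suffolk ewes. Of these, 4 were the daughters of ewes that received BPA, an industrial chemical with oestrogen-like activity, under the skin at 0.5 mg per kg per day in corn oil from day 30 to day 90 of pregnancy, and 4 were the daughters of ewes given corn oil without BPA. Tissue was taken at about 21 months of age, after 48 hours without food, in a cycle synchronised by prostaglandin F2α (10 mg, 2 injections 11 days apart) and 24 hours after the later injection. Each animal gave 1 liver library (tip of the left lobe) and 1 library of vastus lateralis muscle, which makes 4 groups of 4 separate animals; controls were 902, 908, 924 and 928, and BPA animals were 910, 918, 977 and 984.

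snoRNAs work in the nucleolus as guides that pair with ribosomal and spliceosomal RNA. Box C/D snoRNAs direct ribose methylation by fibrillarin, and box H/ACA snoRNAs, which are mostly longer, direct the conversion of uridine to pseudouridine by dyskerin. A few, such as U3, U8 and U14, take part in cutting the ribosomal RNA precursor. In mammals most lie in introns of other genes, often of genes for ribosomal proteins, and are released as the intron is trimmed. Small RNA libraries hold fragments of snoRNAs as well as complete short ones, so a value counts reads assigned to a row and not full-length molecules.

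The deposited value of a row is a number of reads scaled by a single factor for each library, and 1 read was worth 0.357 to 1.71 in the 16 libraries. These factors equalled, within 0.001, median-of-ratios factors recomputed from the snoRNA reads of each tissue alone, but not those of both tissues joined. A ratio of BPA to control is therefore relative to other snoRNAs of the same tissue, over rows with reads in all its libraries. Control livers had 8000 to 10629 snoRNA reads and BPA livers 6054 to 40463, while control muscles had 2825 to 3872 and BPA muscles 9886 to 15915. Marker miRNAs were listed for liver (2 of 4 looked for), striated muscle (1 of 7), leukocytes (1 of 4) and endothelium (1 of 3), and 0 of 3 for red cells. Muscle MIR133 was at 244661 to 373488 in muscle and at 115 to 717 in liver, and liver MIR194 was at 7863 to 10615 in liver and at 107 to 206 in muscle, with no overlap. Leukocyte MIR150 was at 199 to 549 in liver and at 1368 to 2760.2 in muscle on the separately scaled tables, and its part in the tissue differences was not tested. Bulk tissue was sequenced, so fewer cells of a type and less RNA per cell cannot be told apart.

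None of the 38 was at 0 in any library, but many rested on few reads. The number of reads per row and library ran from 1 to 620, and 188 of the 608 values (30.9%) came from 10 reads or fewer. The median number of reads was 24.5 (controls) and 23 (BPA) in liver, and 9 and 17 in muscle. The median level of the 38 was 21.3 in liver and 11.2 in muscle, against 31.5 and 20.7 for the other 120 rows at 5 or more in both tissues.

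The edges of the choice were close to rows outside it. In liver, LOC114111819 and LOC114114237 had ratios of 0.502 and 0.527 and were inside, and LOC114115069, at 0.499, was outside. At the upper limit in liver, LOC114117364 and LOC114114264 were inside with 1.98 and 1.77, and LOC114115930 was outside with 2.09. In muscle the lowest ratios inside belonged to LOC114118590 and LOC114115081 (0.527 and 0.537), with LOC114117078 outside at 0.474. The highest inside were LOC114117050 and LOC114110203 (1.90 and 1.79), with LOC114116285 outside at 2.06. The level limit lay between LOC114114654 (4.94) and LOC114118590 (5.88) in liver, and between LOC114113394 (4.93) and LOC114111812 (5.51) in muscle. Of the 120 rows left out, 69 failed in liver only, 21 in muscle only and 30 in both.

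All 38 had an entry in RefSeq's sheep gene table (assembly ARS-UI_Ramb_v3.0), where they are listed as snoRNAs of 62 to 236 nt. No length fell between 94 and 114 nt, so 21 shorter rows (up to 94 nt) and 17 longer ones (114 nt and more) are told apart below. This split was made after the values were seen. The longer ones made up 44.7% of the 38 and 35.8% of the 109 other rows with a known length. By the same source, 26 of the 38 lay inside a protein-coding gene, 2 inside an lncRNA gene and 10 inside no listed gene, and of the 109 others 79, 16 and 14 did.

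Ribosomal protein genes held 9 of them (RPL3, RPL10, RPL12, RPL13, RPL13A, RPL23A, RPL27A, RPS2 and RPS12, with 1 each), as they held 19 of the 109 others. Further members lay in NCL, which encodes nucleolin, in HSPA8, which encodes a constitutive heat shock chaperone, in EIF4G2, which encodes a translation factor, in WDR43, which encodes a factor of ribosome assembly, and in DDX39B and RBMX, which encode RNA-binding proteins of splicing and export. The human counterparts of several of these genes are known hosts: HSPA8 of U14, TMEM107 of U8, which is needed to process large-subunit ribosomal RNA, SNX5 of SNORD17, RBMX of SNORD61 and RPL13 of SNORD68, the last pair of which serve as reference RNAs in quantitative PCR. The deposited rows carry numbers only, so which snoRNA each sheep row is was not settled.

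Some of the 38 shared their reads. LOC114109176, LOC114109177 and LOC114109179, all of 92 nt, had the same reads in every library except muscle 918, and LOC114117361, LOC114111815 and LOC114118625, all of 135 nt, had the same reads except that LOC114118625 had fewer in liver 910 and in muscle 910 and 918. LOC114111265 and LOC114110522, both of 134 nt, had nearly the same reads as well. How the authors assigned reads that match several copies is not given in the sources used here, so these rows cannot be separated. Counted once each, the 38 rows were 33.

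**Figure D1:**
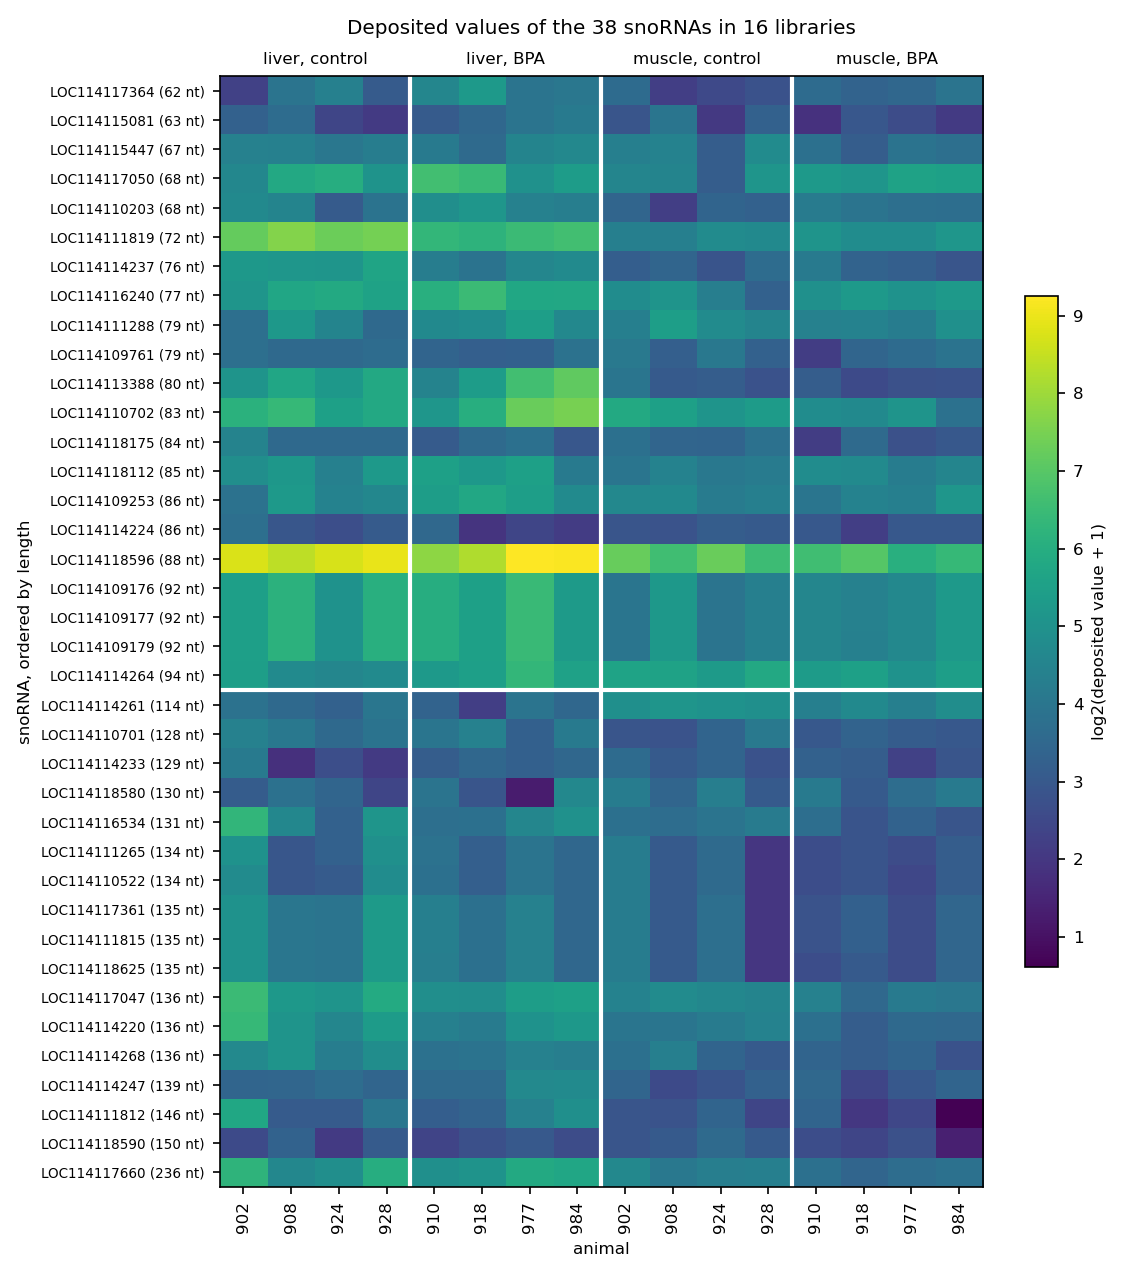
Deposited values of the 38 snoRNAs on a log2(value + 1) colour scale, with rows ordered by length (a white line divides those under 100 nt from the rest) and columns by tissue, treatment and animal. LOC114118596 stands out as the brightest row in all 16 libraries, and rows with the same reads show as identical bands.

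The most abundant of the 38 by length was LOC114118596, an 88 nt snoRNA inside HSPA8. Its deposited values were 433, 337, 428 and 505 in control livers 902, 908, 924 and 928, and 221, 300, 609 and 591 in BPA livers 910, 918, 977 and 984. In muscle they were 152, 97, 155 and 92.5 in controls and 96.2, 124, 66.4 and 82.8 in BPA animals. Per 100 nt this made a mean of 486 in liver and 123 in muscle, and it ranked 1 of the 38 in each of the 16 libraries. It alone held 11.3% to 32.9% of the reads of the 38. It was also the single member with a mean of at least 50 in both tissues.

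Below it the order depended on tissue and library. LOC114111819 (72 nt, in RBMX) followed in liver with 177 per 100 nt, ranking 2 to 4 in single livers, and was at 36.9 per 100 nt in muscle. LOC114110702 (83 nt, in an lncRNA gene) was at 103 and 41.0 per 100 nt in liver and muscle, LOC114117050 (68 nt, in RPL23A) at 79.7 and 45.9, and LOC114116240 (77 nt, in RPS12) at 73.7 and 36.4. The ranks of these 3 overlapped, from 2 to 16 in single livers and from 2 to 22 in single muscles. LOC114114264 (94 nt, in RPL3) ranked 10 in liver with 43.2 per 100 nt and 2 in muscle with 46.5.

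Between BPA and control animals the 38 were spread over the whole width of the window that chose them. In liver 18 of the 38 had a ratio above 1 and 20 below, with a median of 0.996, and in muscle 12 were above and 26 below, with a median of 0.766. Over all 158 rows at 5 or more in both tissues, 98 were above 1 in liver (median 1.63) and 69 in muscle (median 0.878), so a liver ratio near 1 lay below that of the median row. Both ratios were above 1 for 10 rows and below 1 for 18, while 8 were above in liver and below in muscle and 2 the reverse. The 4 rows closest to control in both tissues were the 3 rows of 92 nt that share their reads (ratios of 1.10 in liver and 1.23 to 1.24 in muscle) and LOC114110701, a 128 nt snoRNA in RPS2 (0.994 and 0.808).

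The shared 92 nt rows show how wide the groups were even there. LOC114109177 was at 43.8, 70.8, 31.6 and 65.6 in the control livers and at 62.1, 45.4, 86.6 and 39.4 in the BPA livers. In muscle it was at 14.5, 36.4, 14.2 and 19.1 in controls and 22.7, 20.4, 24.3 and 37.2 in BPA animals. The groups overlapped in both tissues, and control livers alone spanned 31.6 to 70.8.

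Of the 17 longer members, among which 5 belong to the sets of 135 and 134 nt that share reads, 14 had a ratio below 1 in both tissues, with medians of 0.680 in liver and 0.678 in muscle. The exceptions were LOC114118580 in RPL27A, LOC114114247 in KANSL2 and LOC114114233 in RPL12. LOC114117047, of 136 nt and inside TMEM107, was at 54.3 ± 26.1 in control and 35.7 ± 8.74 in BPA livers, and at 23.3 ± 2.48 and 15.8 ± 4.04 in muscle (SD, n = 4). LOC114114220, also of 136 nt and inside CHST11, was at 44.7 ± 26.3 and 26.3 ± 8.91 in liver and at 16.7 ± 2.86 and 10.7 ± 2.08 in muscle. For both, control liver 902 was the highest library (89.6 and 82.8), and all BPA muscles lay below all control muscles. The 21 shorter members had medians of 1.19 in liver and 1.04 in muscle, and 9 of them were above 1 in both tissues. Some of these 21, such as LOC114118175 in RPL13A (0.713 and 0.602), lay among the longer ones. Low ratios were not particular to longer rows inside the window. Outside it, several longer rows were also below 1 in both tissues. LOC114111313 (137 nt) was at 0.223 in liver and 0.663 in muscle. LOC114114248 (134 nt) was at 0.0268 and 0.701, and LOC114114259 (248 nt) at 0.243 and 0.681. Others were above 1 in liver, such as LOC114113393 (134 nt), at 4.48 and 0.919, and LOC114117367 (132 nt), at 3.33 and 0.413. How many of the 39 longer rows outside were below 1 in both tissues was not counted. The 14 of 17 is therefore not shown to be particular to the members.

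**Figure D2:**
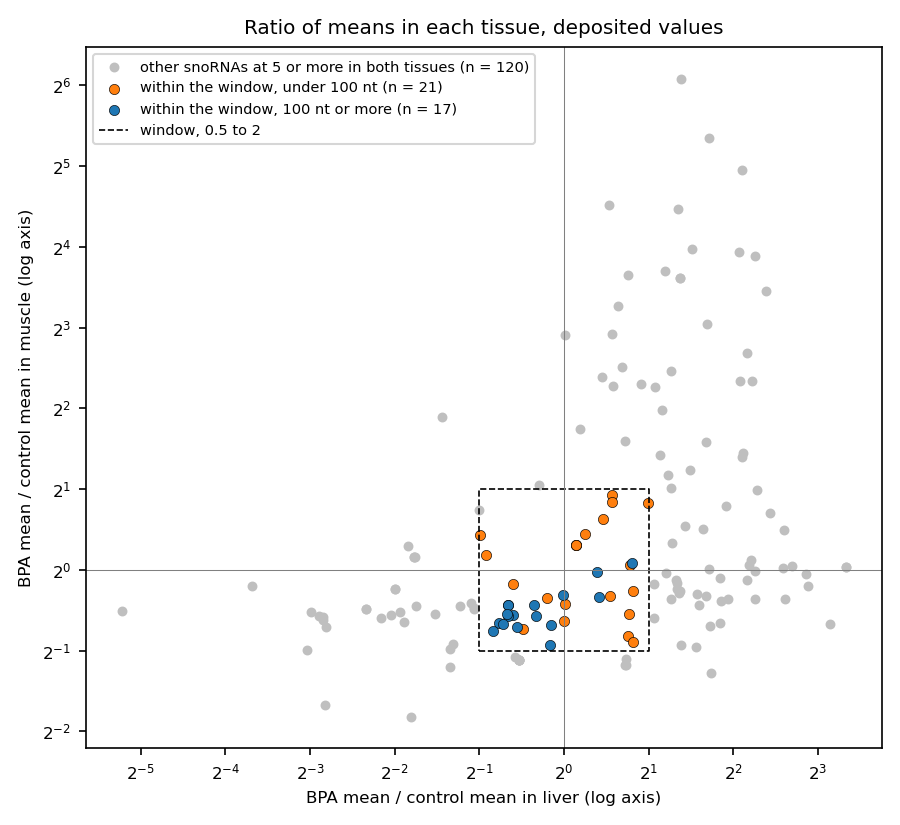
Ratio of the BPA mean to the control mean in liver (x axis) and muscle (y axis), both on log axes, for the 158 snoRNAs at 5 or more in both tissues; the dashed square is the window of 0.5 to 2. Of the 17 longer members 14 lie below 1 on both axes, and the 21 shorter ones spread over all of the square. Rows outside the square are not marked by length.

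In most of the 38 the groups of a tissue overlapped. In liver 2 members had all BPA livers below all controls (13.9% of the 158 rows did) and 0 had all above (26.6% of the 158 rows). In muscle 6 had all BPA animals below all controls (8.23% of the 158 rows) and 3 had all above (26.6% of the 158 rows). The window excludes large differences, so these counts are set by the choice of the rows.

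LOC114111819, inside RBMX, did not overlap in either tissue. It was at 148, 199, 158 and 172 in control livers and 79.3, 72.2, 89.4 and 99.3 in BPA livers, so that its ratio of 0.502 only just met the limit. In muscle the order was turned, with 19.4, 19.4, 26.8 and 25.0 in controls and 33.2, 27.2, 26.8 and 34.5 in BPA animals, a ratio of 1.34. The lowest BPA muscle (26.83) and the highest control muscle (26.82) were nearly equal. LOC114114237, inside WDR43, was the other member with all BPA livers lower, at 36.0, 34.2, 33.8 and 49.5 against 18.2, 13.9, 23.1 and 25.7. In muscle it was at 8.08, 9.7, 6.31 and 11.7 in controls and at 16.6, 9.26, 8.31 and 6.37 in BPA animals, and these groups overlapped.

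**Figure D3:**
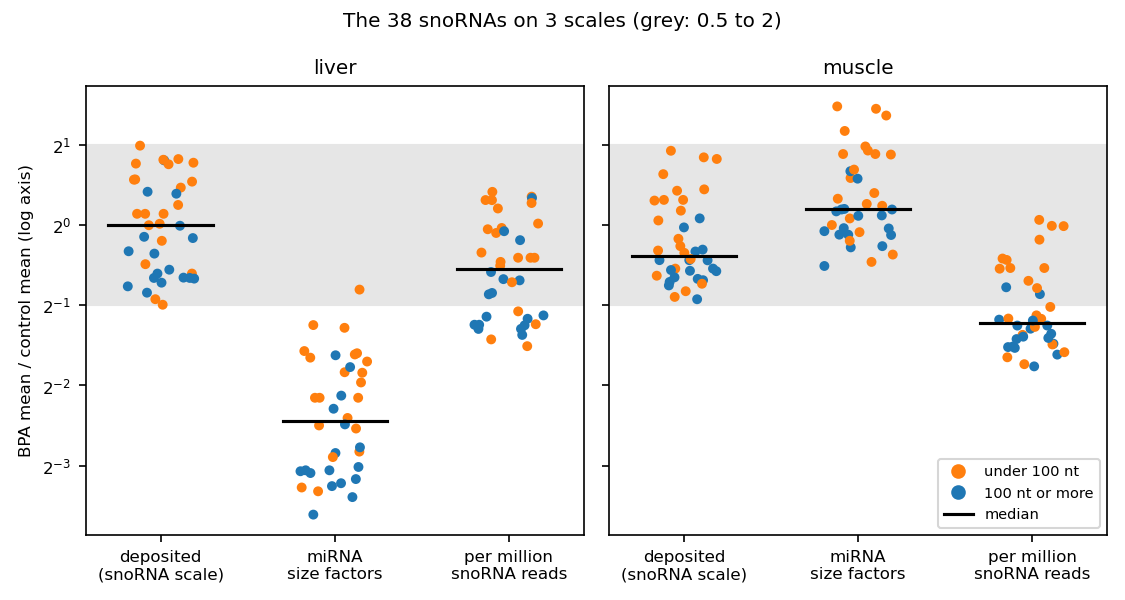
BPA to control ratio of each of the 38 snoRNAs (points, log axis) in liver and muscle on the deposited scale, with the size factors of the miRNA table, and as a share of all snoRNA reads; bars are medians and the grey band is 0.5 to 2. In liver the median moves from 0.996 to 0.184 with the miRNA size factors, and in muscle from 0.766 to 1.14.

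On other scales fewer of the 38 stayed inside the window. All 38 were inside on the deposited scale by choice, so their number could not rise. With the size factors of the miRNA table of the same libraries, 37 of the 38 were at or below 0.5 in BPA livers, with a median ratio of 0.184. Of all 158 rows, 97 were at or below 0.5 in liver, with a median of 0.333, so the fall was not confined to the 38. In both tissues 0 of the 38 met the rule, and 28 of the 158 did. In muscle the same scale gave a median of 1.14, and 34 of the 38 stayed between 0.5 and 2, as did 109 of the 158. Against all snoRNA reads of a library, 25 of the 38 stayed inside in liver (median 0.685), 13 in muscle (median 0.429) and 11 in both. Of the 158 rows, 65 were inside in liver, 49 in muscle and 22 in both.

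The 38 held unlike shares of the libraries. Their summed reads were 22.3%, 17.3%, 14.5% and 19.7% of snoRNA reads in control livers 902, 908, 924 and 928, and 8.55%, 9.03%, 16.5% and 17.5% in BPA livers 910, 918, 977 and 984. In muscle the share was 15.2% to 16.1% (controls) and 7.53% to 8.31% (BPA), without overlap. The window left out more rows as too high in BPA animals than as too low. In muscle these were 38 and 13 of the 158 rows, and in liver 66 and 33. The shares are therefore set in part by the choice of the rows, and their difference was not tested. For every 100 miRNA reads, control livers gave 3.69 to 8.48 reads of any snoRNA and BPA livers 0.944 to 2.92. For muscle the figures were 0.587 to 0.692 (controls) and 1.30 to 2.67 (BPA). In neither tissue did the groups overlap, with BPA lower in liver and higher in muscle, and the part of this total in the ratios of the 38 was not tested.

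The coefficient of variation (CV, SD over mean, n = 4) had a median over the 38 of 40.9% in control livers, 32.7% in BPA livers, 35.3% in control muscle and 26.5% in BPA muscle. Counting of reads alone would give medians of 20.2%, 24.9%, 33.8% and 24.7%. The CV was above the counting value in 34 and 31 of the 38 in control and BPA livers, and in 20 and 25 of the 38 in control and BPA muscle. The median CV of the other 120 rows was 44.2%, 37.5%, 31.2% and 21.4% in the same order of groups.

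The CV of LOC114111819 was 13.1% to 16.9% in the 4 groups, and no other member stayed as low in all of them. Counting alone would give this row 7.63% in control livers, 11.7% in BPA livers, 25.5% in control muscle and 14.8% in BPA muscle. Its CV in muscle (16.9% and 13.2%) lay below these counting values, so the low muscle spread does not show a steady level. LOC114111812, a 146 nt snoRNA in no listed gene, had the largest CV (105%, control livers). It was at 53.6, 7.5, 7.63 and 15.1 in control livers, 8.21, 9.26, 20.2 and 29.1 in BPA livers, 6.46, 6.06, 9.46 and 4.40 in control muscle and 9.62, 3.09, 4.47 and 0.531 in BPA muscle, the last value being a single read. Its ratios of 0.797 and 0.671 rest on these values.

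Several BPA liver means were made of unlike animals. LOC114118596 had a liver ratio of 1.01, but livers 910 and 918 (221 and 300) lay below all controls and livers 977 and 984 (609 and 591) above all of them, a ratio of 2.30 between the pairs. LOC114113388, inside NCL, was at 33.1, 52.5, 35.9 and 56.0 in control livers, 21.1 and 40.7 in BPA livers 910 and 918, and 99.5 and 140 in 977 and 984, a ratio of 3.88. LOC114110702 was at 69.2, 83.3, 44.7 and 56.0 in controls, then at 34.6 and 63.9 and at 153 and 176, a ratio of 3.34. LOC114117050, inside RPL23A, went the other way, with 23.4, 55.8, 63.2 and 32.3 in controls, 99.6 and 88.0 in 910 and 918, and 30.3 and 41.1 in 977 and 984 (ratio 0.381). In muscle LOC114117050 was at 22.6, 21.8, 7.89 and 33.8 in controls and at 37.6, 34.0, 47.3 and 44.6 in BPA animals, so that all 4 BPA muscles were above all controls.

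Of the 38, 20 had no overlap between these pairs of BPA livers (65.8% of the 158 rows had none), 16 with 977 and 984 higher (31.6% of the 158 rows) and 4 with them lower (34.2%). In livers 977 and 984, 6 members were at least 2 times as high as in 910 and 918 (10.8% of the 158 rows) and 2 were at most 0.5 times as high (20.9%). In muscle of the same animals the median ratio between the pairs was 1.03. There 1 member, LOC114111812, differed at least 2-fold, as did 6 of the other 120 rows. Pairs without overlap were not counted in muscle, but they were present there too. LOC114118596 was at 96.2 and 124 in muscles 910 and 918 and at 66.4 and 82.8 in 977 and 984. LOC114117050 was at 37.6 and 34.0, then at 47.3 and 44.6. Both differed in the direction opposite to liver. Livers 910 and 918 carry the library codes 95 and 96 and had 40463 and 15646 snoRNA reads, and livers 977 and 984 carry the codes 71 and 72 and had 8277 and 6054. The part of code and depth in this division was not tested. Against all controls, 30 of the 38 would have met the rule with 910 and 918 alone and 29 with 977 and 984 alone. With each of the 2 pairs in turn 23 of the 38 met it. Of the 158 rows, 45 met it with 910 and 918 alone and 37 with 977 and 984 alone.

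**Figure D4:**
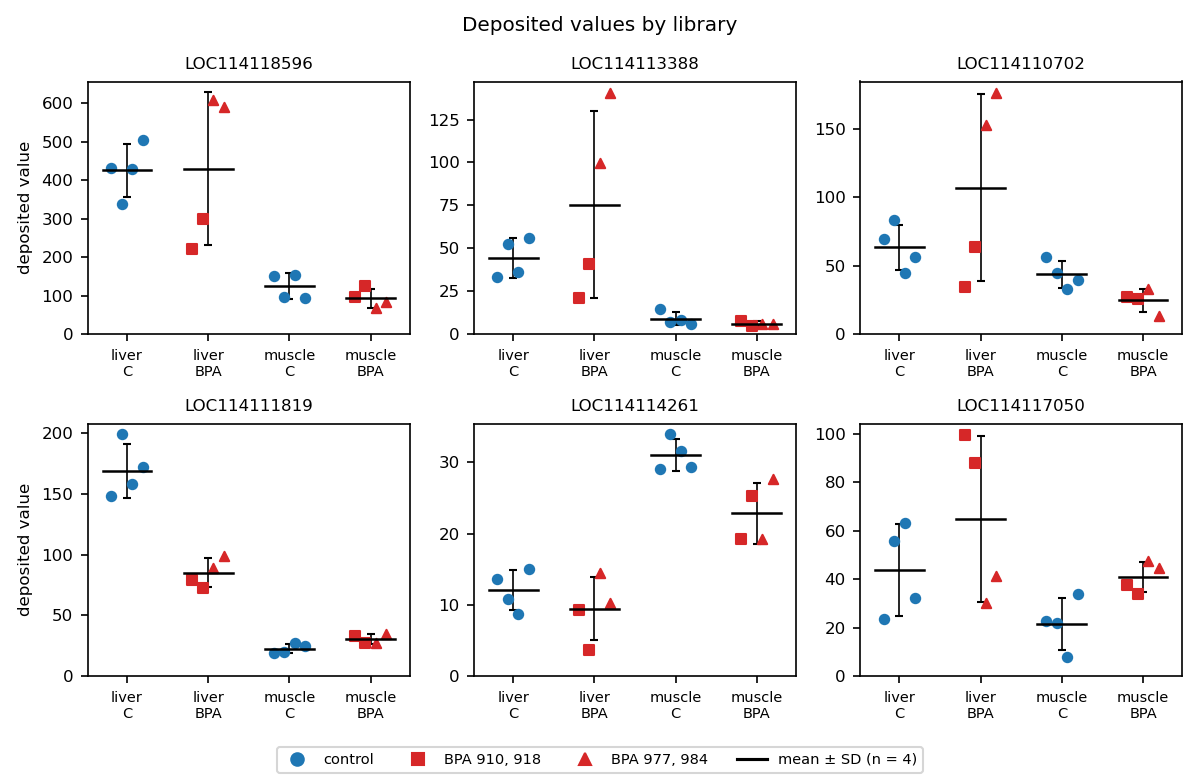
Deposited values of 6 members by tissue and treatment (C, control); each point is a library, bars are the mean ± SD of 4 animals, and axes start at 0. Squares (910, 918) and triangles (977, 984) separate in BPA liver for all 6 members. In muscle of the same animals they separate for LOC114118596 and LOC114117050, each in the direction opposite to liver. They overlap there for LOC114113388, LOC114110702, LOC114111819 and LOC114114261.

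Between the tissues, 9 of the 38 differed and 29 did not pass the test. Because the deposited scale was that of each tissue alone, recovered reads were first brought to 1 scale by the median of ratios over the 16 libraries, and the difference is muscle minus liver in log2(value + 1), relative to the median snoRNA. On this joint scale 4 of the 38 were higher in muscle and 5 in liver, against 14.6% and 26.8% of the 198 snoRNAs tested (limma with a mean-variance trend, 16 libraries, Benjamini-Hochberg over the 198). The level of 5 required in both tissues keeps snoRNAs of a single tissue out of the 38. The median difference of the 38 was -0.21, against -0.10 for all 198, and ranged from -2.02 to 1.96. As deposited, the medians were -0.85 for the 38 and -0.77 for all 198, 7 of the 38 had the opposite sign, and 1 member was called higher in muscle and 22 in liver, against 5.56% and 44.9% of the 198. The members called on both scales with the same sign were 1 and 5, against 5.56% and 26.8% of the 198.

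LOC114114261, a 114 nt snoRNA inside RNF149, which encodes a ubiquitin ligase, was the one member higher in muscle on both scales. It was at 13.6, 10.8, 8.71 and 15.1 in control livers and 9.28, 3.70, 14.4 and 10.3 in BPA livers. In muscle it was at 29.1, 33.9, 31.5 and 29.4 in controls and 19.2, 25.3, 19.2 and 27.6 in BPA animals. All muscles thus lay above all livers, and the difference had the same sign in 8 of 8 animals. It came to 1.96 ± 0.23 on the joint scale (SE, limma adjusted p = 2.74e-06) and 1.31 ± 0.23 as deposited. The row passed in all 20 alternatives, with a limma, edgeR or DESeq2 adjusted p from 1.68e-16 to 0.00692.

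LOC114113388, inside NCL, showed the opposite pattern. To its liver values of 21.1 to 140 given above stood muscle values of 14.5, 7.27, 7.89 and 5.87 in controls and 7.87, 4.94, 5.75 and 5.84 in BPA animals. The difference was -2.02 ± 0.33 on the joint scale (SE, limma adjusted p = 0.000118) and -2.67 ± 0.33 as deposited, with liver higher in 8 of 8 animals. Over 20 alternatives the limma, edgeR or DESeq2 adjusted p was 6.91e-09 to 0.0149. A comparison of these 2 members within a library needs no scale. LOC114114261 gave 7.32 to 44.1 reads per 100 reads of LOC114113388 in the 8 livers and 200 to 513 in the 8 muscles, without overlap.

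LOC114111819 and LOC114118596 were also higher in liver on both scales and in 8 of 8 animals. LOC114118596, inside HSPA8, differed by -1.26 ± 0.24 on the joint scale and -1.96 ± 0.24 as deposited (SE, limma adjusted p = 0.000538 on the joint scale). Over 20 alternatives its limma, edgeR or DESeq2 adjusted p was 1.49e-06 to 0.0336. LOC114111819, inside RBMX, differed by -1.47 ± 0.17 and -2.15 ± 0.18 (SE, limma adjusted p = 2.74e-06 on the joint scale). Its call was lost in BPA animals alone, where the difference was -0.73 (limma adjusted p = 0.0686). Over 20 alternatives the limma, edgeR or DESeq2 adjusted p of LOC114111819 was 1.63e-15 to 0.0686. Per animal the difference ran from -2.54 to -1.99 in the 4 controls and from -0.90 to -0.49 in the 4 BPA animals. These 2 ranges repeat the liver and muscle ratios that the choice used and were not tested.

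The other members higher in liver on both scales were LOC114114237 and LOC114117660. LOC114114237, inside WDR43, differed by -0.83 ± 0.23 with liver higher in 6 of 8 animals (SE, limma adjusted p = 0.00827) and by -0.29 in BPA animals alone (adjusted p = 0.598; 3.35e-05 to 0.598 over 20 alternatives). LOC114117660, the longest of the 38 at 236 nt and inside SNX5, was at 75, 23.3, 28.3 and 62.4 in control livers, 29.3, 32.4, 57.7 and 51.4 in BPA livers, 24.2, 15.8, 18.9 and 19.1 in control muscle and 13.1, 9.88, 12.1 and 13.3 in BPA muscle. Muscle and liver overlapped in controls only. Its difference of -0.72 ± 0.26 with liver higher in 7 of 8 animals (SE, limma adjusted p = 0.0357; 0.000186 to 0.387 over 20 alternatives) passed in 10 of 20 alternatives. It did not pass without animal 902, 918, 928, 977 or 984 (-0.73 to -0.63, limma adjusted p from 0.0618 to 0.102) or without the liver library of 902 alone (-0.57, adjusted p = 0.0746).

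**Figure D5:**
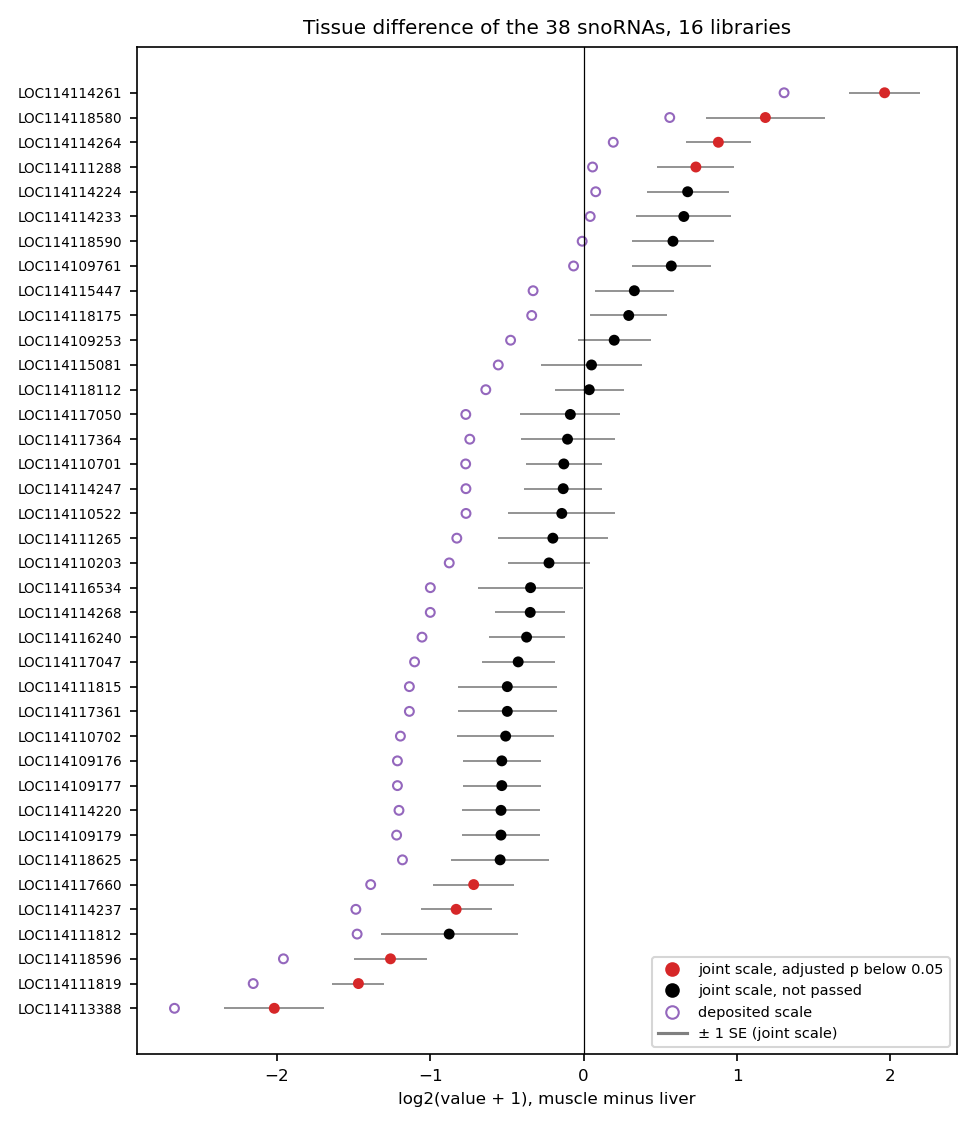
Muscle minus liver difference in log2(value + 1) for the 38 snoRNAs over 16 libraries; filled points are the joint scale with ± 1 SE (red where the adjusted p was below 0.05), and open circles the deposited scale. The open circles lie to the left of the filled ones throughout, and LOC114114261 is the one red point whose open circle lies above 1.

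A further 3 members were called higher in muscle on the joint scale but not as deposited, and the deposited values of the tissues overlapped in each. LOC114114264, inside RPL3, was at 42.9, 25.8, 22.9 and 25.8 in control livers, 37.5, 44.4, 79.3 and 46.2 in BPA livers, 48.5, 47.3, 39.4 and 55.8 in control muscle and 40.2, 45.1, 31.3 and 42.5 in BPA muscle. It had joint-scale and deposited differences of 0.88 ± 0.21 and 0.19 ± 0.21, the former with muscle higher in 7 of 8 animals (SE; limma adjusted p = 0.00353 and 0.450). LOC114118580, inside RPL27A, was at 7.79, 13.3, 9.8 and 4.3 in control livers, 14.3, 6.48, 1.44 and 24.0 in BPA livers, 17.8, 9.7, 18.9 and 7.34 in control muscle and 16.6, 7.41, 12.1 and 16.5 in BPA muscle, from 1 to 40 reads. Its differences were 1.18 ± 0.39 and 0.56 ± 0.40, and on the joint scale muscle was higher in 8 of 8 animals (SE; limma adjusted p = 0.0204 and 0.250). LOC114111288, inside RABGGTB, was at 12.7, 36.7, 21.8 and 10.8 in control livers, 25.0, 26.9, 43.3 and 24.0 in BPA livers, 19.4, 42.4, 26.8 and 22.0 in control muscle and 20.1, 21.0, 17.9 and 29.7 in BPA muscle. Its differences were 0.73 ± 0.25 and 0.06 ± 0.26, with muscle higher in 7 of 8 animals on the joint scale (SE; limma adjusted p = 0.0261 and 0.865). Over 20 alternatives their limma, edgeR or DESeq2 adjusted p ranged from 0.000223 to 0.450, from 0.00947 to 0.250 and from 0.0134 to 0.865. In BPA animals alone none of the 3 passed, at 0.39 for LOC114114264, 1.21 for LOC114118580 and 0.32 for LOC114111288 (limma adjusted p = 0.426, 0.217 and 0.471), nor with the miRNA size factors (0.74, 0.97 and 0.60, adjusted p = 0.0846, 0.0571 and 0.169). LOC114118580 did not pass without animal 902 or 977 (1.09 and 0.88, limma adjusted p = 0.0636 and 0.0524). LOC114111288 did not pass without 910, 918, 928 or 984 (0.63 to 0.72, limma adjusted p from 0.0580 to 0.0853), nor without the liver library of 902 (0.66, adjusted p = 0.0522).

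The genes around 9 of the members held 15 further snoRNAs at 5 or more in both tissues, all of them outside the window; any further snoRNA inside it would itself be one of the 38, so this contrast is set by the choice. Examples picked after the values were seen follow. Beside LOC114118596 (ratios of 1.01 in liver and 0.745 in muscle), HSPA8 held LOC114118597, at 0.122 and 0.503. RPS12 held LOC114116240 (1.38 and 1.55) and LOC114116284, at 2.85 and 15.7. NCL held LOC114113388 (1.70 and 0.686) and LOC114113382, at 2.55 and 22.1, whose reads were nearly the same as those of rows elsewhere. RPL13A, known in mammals for intron snoRNAs studied in the cell's response to excess fatty acids, held LOC114118175 (0.713 and 0.602), LOC114118174 (2.53 and 0.850) and LOC114118106 (0.369 and 3.71).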

How the data were processed

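Small RNA from 16 libraries (liver and muscle of 8 sheep) was read from the authors' deposited snoRNA and miRNA tables of normalized counts. Per the submitters' processing notes, cutadapt 3.2, STAR 2.6.0c and featureCounts 1.6.1 were used; what each did, which sheep genome and annotation served, and which tool made the size factors is not given in the sources used here. In both tables the deposited values are a signal, read counts divided by 1 size factor per library. Every snoRNA value was a whole multiple of its library's smallest value within 0.001, so whole reads were recovered for 100% of values.

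Members, gene lists and tests were chosen with earlier results of these data known. All 9 lists of named snoRNAs (box C/D and H/ACA processing snoRNAs, quantitative PCR references, RPL13A, GAS5 and SNHG1 introns, imprinted regions, Cajal body RNAs, U6 guides) matched 0 rows, since rows are identified by number. Hosts are the shortest protein-coding or lncRNA gene that contains a row in the RefSeq table, without regard to strand. Rows within 5 nt in length whose summed read difference was under 0.1 of their summed reads were taken as sharing reads.

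The tissue test was limma 3.58.1 (R 4.3.3) on log2(value + 1), two-sided, for rows averaging 5 or more across all libraries, with Benjamini-Hochberg adjustment and a threshold of 0.05, in 4 groups without a block. A form of it with tissue as the only factor was run on simulated counts. These had no treatment groups, no pairing and the same spread setting for all rows. That run therefore does not measure the errors of the test on these data. edgeR 4.0.16 and DESeq2 1.42.0 on recovered reads were alternatives, as were the animal as a block, other scales, pseudocounts and filters, and leaving out each animal. Library numbers pair the tissues because each marks 1 animal; deviations of the 2 libraries of an animal from their group means correlated by -0.10 to 0.32 over the 198 rows. Rows named are the 6 highest, those called on both scales, those at the edges of the rule, and up to 3 sets that share reads; a part on spread among rows at 50 or more in both tissues found 1 row. The other called rows, the rows with no overlap, the rows that differ among BPA livers and those around shared hosts were named after their values were seen.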

Additional observations from a re-analysis of the deposited data

Results flagged for a closer look

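Among 100 groups of 4 libraries looked at in 25 named snoRNAs, 5 values stood apart from the other 3 of their group by most of that group's range (Dixon's test); chance gives about 1 in 20 groups. These were LOC114114264 at 42.9 in control liver 902, LOC114111812 at 53.6 in the same liver, LOC114114237 at 49.5 in control liver 928, LOC114110203 at 3.64 in control muscle 908, and LOC114111288 at 43.3 in BPA liver 977.

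In 3 of the 25 named snoRNAs every BPA liver lay on one side of the control mean and every BPA muscle on the other. The difference between the tissues was not tested. All 3 are among the rows named for lying at the edges of the ratio window, so the naming favours such rows. How many of the other members, or of the rows outside the window, show the same was not counted. LOC114111819 had ratios of 0.502 in liver and 1.34 in muscle, LOC114114264 of 1.77 and 0.833, and LOC114115081, a 63 nt snoRNA with 2 to 21 reads per library, of 1.76 and 0.537.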

How the results depend on the processing

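The rule gave 38 rows. As shares of all snoRNA reads it gave 22 (11 of the 38), with a window of 1.5-fold 12 and with a level of 10 it gave 22; with the miRNA size factors 28 rows met it, 0 of them among the 38. Leaving out 1 animal gave 35 to 43 rows, and 21 of the 38 stayed inside in all 8 such sets. The counts of members higher in muscle and in liver, 4 and 5 on the joint scale, were 1 and 22 as deposited, 8 and 4 on the TMM scale, 1 and 4 with the miRNA size factors, and 1 and 3 in BPA animals alone. With the animal as a replicate block they were 4 and 5, and with edgeR or DESeq2 5 and 5; the block changed no call among the 9 members. Leaving out 1 animal gave 3 to 5 and 4 to 7. The median difference of the members was -0.85 as deposited and -0.21 with the block. The median of all tested rows moved from the joint scale by -0.66 as deposited, by 0.14 with TMM and by -0.12 with the miRNA size factors. The alternatives for single animals, scales and tools reversed the sign of none of the 9 called members. The cause of these shifts was not tested. Control muscle had a median of 9 reads per row and library, and what difference that depth can show was not tested.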
